A study of Homo sapiens with 8 samples.

Results

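Transcripts of 10 genes of nucleotide excision repair and translesion synthesis (XPC, DDB1, DDB2, XPA, ERCC1, ERCC2, ERCC5, POLH, POLK and REV3L) were followed in 8 RNA sequencing libraries whose cells are labelled THP1, a line from acute myeloid leukaemia of monocytic type. The genes were taken by name, through the Ensembl identifiers of the deposited tables, and all 10 were found among the 34618 genes listed. The 4 MOCK libraries are from cells carrying an empty vector. The 4 RRM2_OE libraries are from cells carrying the iRxI/AxA mutant, whose libraries the labels also describe as RRM2 OE. Cultures of both groups received doxycycline at 2 µg/mL in medium with serum approved for Tet systems. Whether the cells were pools or single clones, and which promoter drives the construct, is not stated. RRM2 forms part of ribonucleotide reductase, which supplies deoxyribonucleotides for DNA synthesis, and the comparison asks which transcripts change when the mutant is present.

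Nucleotide excision repair removes bulky lesions such as those made by ultraviolet light. XPC, and the UV-DDB complex of DDB1 and DDB2, find the lesion, the helicases of TFIIH (ERCC2 and ERCC3) open the DNA, XPA checks it, the nucleases ERCC1-ERCC4 and ERCC5 cut out the damaged stretch, and a replicative polymerase fills the gap. Translesion polymerases do not remove damage but copy across it: POLH and POLK belong to the Y family, and REV3L is the catalytic subunit of polymerase zeta. DDB2, XPC and POLH are textbook targets of the transcription factor p53.

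Library totals lay between 10994255 and 11686152 counts. RRM2 stood at 123 ± 5.35 CPM (counts scaled to a common library size, with TMM factors) in MOCK and 225 ± 8.33 CPM in RRM2_OE (mean ± SD, n = 4 each), with no overlap between the groups. Counts per gene cannot tell reads of an RRM2 construct from those of the cells' own RRM2 gene. The p53 targets CDKN1A, a cell cycle inhibitor, and MDM2, the ubiquitin ligase of p53, rose by 1.52 and 1.03 on the log2 scale, while GADD45A gave 0.39 and did not pass (adjusted p = 0.151, edgeR). With replicate number as a block GADD45A did pass, at 0.39 with adjusted p = 1.87e-07 (edgeR). Of 10 monocyte and myeloid markers, 9 reached a mean of 1 CPM in MOCK, while CD68 was at 0.67 CPM. Markers of other lineages were present as well: 6 of 6 erythroid genes, 4 of 6 T and NK genes, 3 of 5 B cell genes and 2 of 5 epithelial and fibroblast genes reached 1 CPM in MOCK. The summed erythroid level went from 176 to 191 CPM in MOCK to 130 to 141 CPM in RRM2_OE, the T and NK sum from 193 to 206 CPM to 283 to 292 CPM, the B cell sum from 151 to 168 CPM to 60.02 to 66.7 CPM, and the myeloid sum from 2548 to 2661 CPM to 3104 to 3193 CPM. Most of the B cell sum was IGLL1, at a mean of 156 CPM in MOCK and 56.1 CPM in RRM2_OE. MS4A1, which defines mature B cells, was at 0 in all MOCK libraries, and CD3E, which defines T cells, was at a mean of 0.33 CPM in MOCK. The part of these shifts in the results that follow was not tested. Fewer cells of a type and less RNA per cell cannot be told apart in such bulk samples. Since the labels do not say that replicates were separate cultures, the p-values cover the spread among these libraries alone, which may be technical.

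All 10 genes passed the low count filter. DDB2, XPC and POLH were higher in RRM2_OE, ERCC2 was lower, and the other 6 did not pass an adjusted p of 0.05 (edgeR quasi-likelihood test, Benjamini-Hochberg over 15286 genes). Of all genes tested, 7.41% were higher, 5.42% lower and 12.8% called in either direction, against 3, 1 and 4 of these 10. The groups did not overlap for 5 of the 10 genes, 3 with RRM2_OE above and 2 below, where 19.4% of all tested genes did not overlap. The median log2 fold change of the 10 was 0.00, as was that of all genes tested, so the 10 did not shift together: the 3 rises lay at 0.44 to 0.63 and the other 7 at or below 0.02.

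**Figure D1:**
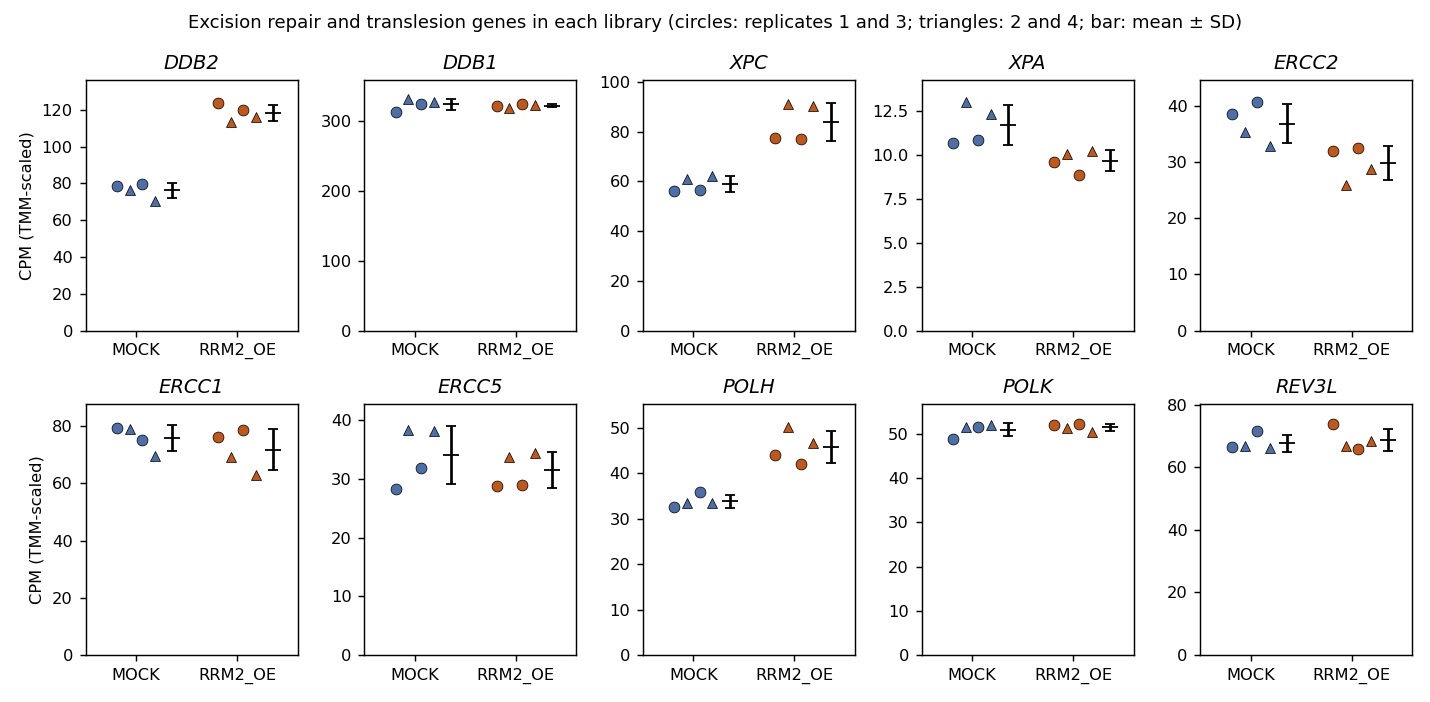
CPM (TMM-scaled, linear axis from 0) of the 10 genes in each MOCK (blue) and RRM2_OE (orange) library, with circles for replicates 1 and 3, triangles for replicates 2 and 4, and a bar for the group mean ± SD. DDB2, XPC and POLH sit higher in every RRM2_OE library than in any MOCK library, ERCC2 and XPA lower, and the other 5 genes overlap.

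**Figure D2:**
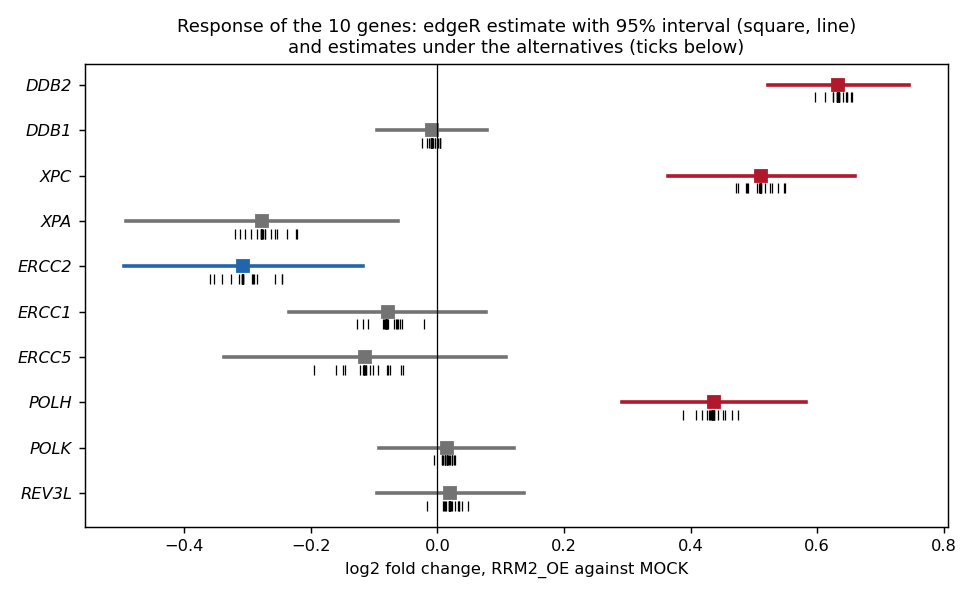
Log2 fold change of each gene, RRM2_OE against MOCK: the square and line give the edgeR estimate with its 95% interval (red higher, blue lower, grey not called), and the ticks under it the estimates under the other settings and with each library left out. The ticks of DDB2, XPC and POLH all lie between 0.39 and 0.65, and those of DDB1, POLK and REV3L lie on both sides of 0.

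DDB2, the subunit of UV-DDB that binds the lesion, had the smallest adjusted p of the 10. It measured 78.5, 76.5, 79.6 and 70.5 CPM in MOCK replicates 1 to 4 and 124, 113, 120.1 and 116 CPM in RRM2_OE replicates 1 to 4. The lowest RRM2_OE library was well above the highest MOCK library. The means were 76.3 ± 4.06 and 118 ± 4.52 CPM (mean ± SD, n = 4), a 1.55-fold rise (95% interval 1.44 to 1.68) with a log2 fold change of 0.63, SE 0.05 and adjusted p = 9.71e-06 (edgeR). The gene (ENSG00000134574) lies on chromosome 11 at 47236493 to 47260767 of hg19, and the only gene whose span overlaps it had 0.686% as many counts.

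DDB1, its partner and also the adaptor of CUL4 ubiquitin ligases, had the highest CPM of the 10 genes and did not follow DDB2. It measured 313, 331, 324 and 327 CPM in MOCK and 321, 318, 325 and 323 CPM in RRM2_OE. The 4 RRM2_OE values fell inside the MOCK range. Its log2 fold change was -0.01 (SE 0.04, adjusted p = 0.927, edgeR), and the 95% interval of the fold was 0.936 to 1.06. Per length of exon, DDB2 was the higher of the pair in both groups, at 41.1 ± 1.79 RPKM against 23.1 ± 0.870 for DDB1 in MOCK (mean ± SD, n = 4). RPKM divides by all annotated exon bases, 1846 for DDB2 and 13950 for DDB1, so the level between genes depends on which isoforms are transcribed. DDB1 overlaps TKFC on the opposite strand by 9387 bases. TKFC had 20.03% as many counts and gave 0.17 on the log2 scale (adjusted p = 0.107, edgeR). Whether reads were counted by strand is not stated, so the DDB1 values carry this uncertainty.

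The promoter windows of the 3 genes that rose are shown because DDB2, XPC and POLH moved together. They are RefSeq sequences on GRCh38.p14, 250 bases before to 50 after an annotated start, read in the direction of transcription (5′ to 3′). In the window of DDB2 (chr11:47214724-47215023, plus strand, the second of 2 windows of this gene) capitals mark 2 matches to the p53 decamer, the 10-base unit of which a p53 response element has a pair. In those of XPC (chr3:14178552-14178851, minus strand) and POLH (chr6:43575935-43576234, plus strand) capitals mark the GC box GGGCGG, which occurs at 1 place in XPC and 3 in POLH, the last 2 of them overlapping. The DDB2 window holds GGGCGG too, which is not marked there, so the capitals are no contrast between the windows in this motif.
DDB2: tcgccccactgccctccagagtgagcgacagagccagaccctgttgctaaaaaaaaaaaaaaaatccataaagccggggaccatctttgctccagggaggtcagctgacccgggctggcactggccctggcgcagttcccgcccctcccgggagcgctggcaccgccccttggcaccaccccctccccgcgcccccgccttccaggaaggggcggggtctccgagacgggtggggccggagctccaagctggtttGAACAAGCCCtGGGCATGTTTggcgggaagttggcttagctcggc
XPC: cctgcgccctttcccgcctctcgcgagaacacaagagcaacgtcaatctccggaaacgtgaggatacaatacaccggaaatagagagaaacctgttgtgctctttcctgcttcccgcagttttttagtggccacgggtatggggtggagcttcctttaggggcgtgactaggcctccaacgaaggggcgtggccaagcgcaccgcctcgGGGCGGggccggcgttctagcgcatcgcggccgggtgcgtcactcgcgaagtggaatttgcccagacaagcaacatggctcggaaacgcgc
POLH: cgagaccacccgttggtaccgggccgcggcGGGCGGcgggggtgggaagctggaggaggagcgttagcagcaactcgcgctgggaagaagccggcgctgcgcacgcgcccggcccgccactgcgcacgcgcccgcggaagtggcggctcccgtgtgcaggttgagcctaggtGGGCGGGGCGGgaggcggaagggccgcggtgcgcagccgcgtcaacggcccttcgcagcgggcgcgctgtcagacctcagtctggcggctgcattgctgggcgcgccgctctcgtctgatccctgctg

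The DDB2 decamers, GAACAAGCCC and GGGCATGTTT, lie at bases 6 to 15 and 17 to 26 counted from the annotated start (chr11:47214979-47214988 and chr11:47214990-47214999) with 1 base between them. Both strands of 35116 windows were searched, and 6.63% held at least 1 decamer. Of the 14 windows of the 10 repair genes 1 did, the second of DDB2, and those of XPC and POLH held 0. A pair with at most 13 bases between was found in 10 windows, 0.0285%, and among the 14 windows of the 10 repair genes in that of DDB2 alone. Of the 10 genes with such a pair, 5 were tested in these libraries. DDB2, PURPL (0.78 on the log2 scale) and LNCTAM34A (1.83) were called higher, where 7.41% of all tested genes were, and DYNC2H1 (-0.11) and MCC (0.34) did not pass. PURPL and LNCTAM34A are long non-coding RNAs at low levels, 1.24 and 0.53 CPM in MOCK, and their calls were not recomputed with libraries left out. The windows were looked at because DDB2, XPC and POLH had risen, so DDB2 is no independent case in this count. So few genes are a description only. GGGCGG was in 11 of the 14 windows and in 45.0% of all windows, CCAAT in 3 of 14 and 34.6%, and TATAAA in 1 of 14 and 11.5%, each on either strand. These matches describe letters in a window and do not show binding, and the absence of a match says nothing of sites elsewhere in the gene.

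XPC, the sensor that starts repair across the whole genome, measured 56.1, 60.9, 56.3 and 62.2 CPM in MOCK and 77.6, 90.9, 77.05 and 90.2 CPM in RRM2_OE. All RRM2_OE libraries lay above all MOCK libraries, and within each group replicates 2 and 4 were the higher. The means were 58.9 ± 3.13 and 84.0 ± 7.66 CPM (mean ± SD, n = 4), a 1.43-fold rise (95% interval 1.29 to 1.58) with a log2 fold change of 0.51, SE 0.07 and adjusted p = 3.96e-04 (edgeR). XPC (ENSG00000154767; chromosome 3, 14186647 to 14220283, minus strand, hg19) overlaps LSM3 on the opposite strand by 426 bases. LSM3 gave 0.03 on the log2 scale (adjusted p = 0.850, edgeR).

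XPA, the small protein that verifies damage, was the least abundant of the 10 in CPM, with 102 to 147 counts in a library. It measured 10.7, 13.003, 10.8 and 12.3 CPM in MOCK and 9.57, 10.02, 8.84 and 10.2 CPM in RRM2_OE. The highest RRM2_OE library was below the lowest MOCK library, by a small margin. The log2 fold change of -0.28 (SE 0.10) did not pass (adjusted p = 0.0886, edgeR). With replicate number as a block it did, at -0.28 with adjusted p = 0.0291 (edgeR).

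ERCC2, the XPD helicase of TFIIH, was the only one of the 10 called lower. It measured 38.6, 35.5, 40.7 and 32.8 CPM in MOCK and 31.9, 26.0, 32.6 and 28.8 CPM in RRM2_OE. The groups did not overlap, but the highest RRM2_OE and the lowest MOCK library were close. The means were 36.9 ± 3.44 and 29.8 ± 3.06 CPM (mean ± SD, n = 4), a fold of 0.809 (95% interval 0.710 to 0.922) with a log2 fold change of -0.31, SE 0.09 and adjusted p = 0.0366 (edgeR). The call was lost on leaving out MOCK replicate 1, 2 or 3 or RRM2_OE replicate 2 or 4 (adjusted p up to 0.107), and in limma on log2(RPKM + 1) (adjusted p = 0.0676). With replicate number as a block the adjusted p was 1.30e-04 (edgeR). ERCC2 (ENSG00000104884) lies on chromosome 19 at 45853095 to 45874176 of hg19 and overlaps KLC3 on the opposite strand, which had 12.03% as many counts and gave -0.25 on the log2 scale (adjusted p = 0.305, edgeR).

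The nucleases did not pass. ERCC1, which with ERCC4 forms the XPF nuclease, measured 79.5, 79.1, 75.1 and 69.6 CPM in MOCK and 76.3, 69.2, 78.7 and 63.0 CPM in RRM2_OE. The groups overlapped over most of their range, and the log2 fold change was -0.08 (SE 0.07, adjusted p = 0.540, edgeR). ERCC5, the XPG nuclease, measured 28.3, 38.3, 31.9 and 38.1 CPM in MOCK and 28.9, 33.8, 29.03 and 34.5 CPM in RRM2_OE. Here too the groups overlapped, and replicates 2 and 4 were the higher in both groups. Its log2 fold change was -0.11 (SE 0.10, adjusted p = 0.534, edgeR). The ERCC5 span is shared by the read-through gene BIVM-ERCC5 on the same strand over 27555 bases. BIVM-ERCC5 had 0 counts in all 8 libraries, and how reads in exons of both were counted is not stated, so the ERCC5 level may cover only part of its reads. ERCC1 overlaps POLR1G and FOSB on the opposite strand, with 32.8% and 17.5% as many counts, and values of ERCC1 and ERCC5 carry this uncertainty.

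Of the 3 translesion polymerases among the 10 genes, POLH alone was called. POLH, polymerase eta, which copies accurately across thymine dimers, measured 32.5, 33.5, 35.8 and 33.4 CPM in MOCK and 44.03, 50.3, 42.03 and 46.7 CPM in RRM2_OE. All RRM2_OE libraries were above all MOCK libraries. The means were 33.8 ± 1.43 and 45.8 ± 3.56 CPM (mean ± SD, n = 4), a 1.35-fold rise (95% interval 1.22 to 1.497) with a log2 fold change of 0.44, SE 0.07 and adjusted p = 0.00107 (edgeR). POLH (ENSG00000170734; chromosome 6, 43543887 to 43586701, hg19) overlaps GTPBP2 on the opposite strand by 13649 bases. GTPBP2 had 258% as many counts and gave 0.14 on the log2 scale (adjusted p = 0.102, edgeR), and whether reads were counted by strand is not stated.

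POLK, polymerase kappa, which extends past bulky adducts of guanine, measured 48.9, 51.7, 51.5 and 51.9 CPM in MOCK and 52.1, 51.3, 52.2 and 50.5 CPM in RRM2_OE. The groups overlapped, with a log2 fold change of 0.01 (SE 0.05, adjusted p = 0.895, edgeR) and a 95% interval of the fold of 0.938 to 1.09. REV3L measured 66.5, 66.7, 71.8 and 66.1 CPM in MOCK and 73.9, 66.8, 65.95 and 68.3 CPM in RRM2_OE. These groups overlapped as well, at 0.02 (SE 0.05, adjusted p = 0.861, edgeR), with an interval of 0.936 to 1.10. An increase of the size seen for POLH lay outside both intervals. On the opposite strand POLK overlaps CERT1 by 383 bases, with 125.5% as many counts and -0.14 on the log2 scale (adjusted p = 0.348, edgeR). POLK also overlaps the unnamed gene ENSG00000248881 by 899 bases, with 17.2% as many counts and -0.06 (adjusted p = 0.845, edgeR). REV3L overlaps TRAF3IP2-AS1 by 205 bases, with 4.75% as many counts and a rise of 0.57 (adjusted p = 0.0404, edgeR). REV3L also overlaps the unnamed gene ENSG00000272356 by 4315 bases, with 15.4% as many counts and 0.13 (adjusted p = 0.505, edgeR). The uncertainty about strand holds for these values too.

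Per length of exon, the 10 genes ranged in MOCK from DDB2 at 41.1 ± 1.79 RPKM through DDB1 at 23.1 ± 0.870, ERCC1 at 13.5 ± 0.619, XPC at 12.2 ± 0.808, POLH at 9.17 ± 0.475, XPA at 6.35 ± 0.672, ERCC2 at 5.68 ± 0.490, POLK at 5.57 ± 0.241 and REV3L at 5.42 ± 0.245 to ERCC5 at 5.10 ± 0.797 (mean ± SD, n = 4). Of neighbours in this order, ERCC1 and XPC, and the 5 genes from XPA to ERCC5, differed by less than their summed SDs. In RRM2_OE, XPC at 17.6 ± 1.83 RPKM stood above ERCC1 at 12.9 ± 1.13, and POLH at 12.5 ± 1.13 lay within the spread of ERCC1.

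Because partner genes were measured in the same libraries, their RPKM ratio does not depend on how libraries are scaled. For 6 ratios an exact two-sided permutation test compared 4 with 4 libraries, where the smallest possible p is 0.0286. The ratio DDB2/DDB1 was 1.78 ± 0.1199 in MOCK and 2.78 ± 0.0981 in RRM2_OE (mean ± SD, n = 4). XPC relative to RAD23B, the protein that stabilises it, went from 0.392 ± 0.0230 to 0.617 ± 0.0421. POLH/POLK went from 1.65 ± 0.0589 to 2.21 ± 0.195. In these 3 ratios the groups did not overlap, and each reached the smallest p the design allows, which adjusted over the 6 ratios is 0.0571 and misses 0.05. With only 3 of the 6 ratios at that p, no lower adjusted value was possible for them. Their numerators are DDB2, XPC and POLH, so these ratios in part restate the rises already given. The uncertainty about strand stated for DDB1, POLH and POLK carries over to DDB2/DDB1 and POLH/POLK.

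The other 3 ratios overlapped between the groups. ERCC2/ERCC3, the helicases of TFIIH, was 0.701 ± 0.0899 in MOCK and 0.553 ± 0.1201 in RRM2_OE (exact permutation p = 0.143, adjusted p = 0.214). ERCC1/ERCC4 was 4.69 ± 0.579 and 4.50 ± 0.165 (exact permutation p = 0.571, adjusted p = 0.686). REV3L relative to MAD2L2, the accessory subunit of polymerase zeta, was 0.750 ± 0.0666 and 0.732 ± 0.0399 (exact permutation p = 0.686, adjusted p = 0.686).

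**Figure D3:**
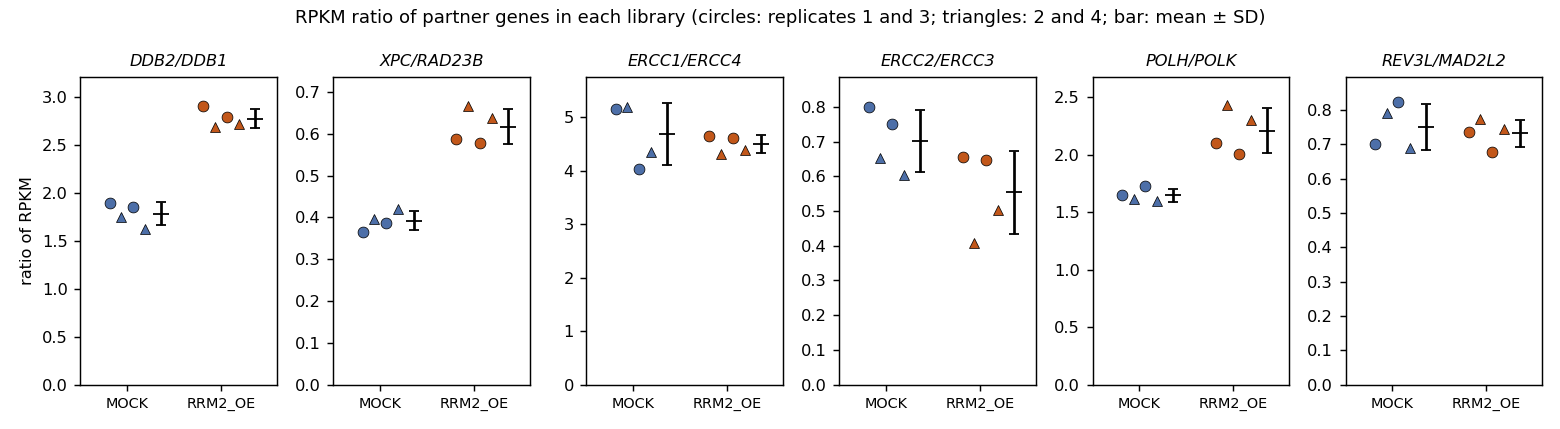
RPKM ratio of 6 pairs of partner genes in each MOCK (blue) and RRM2_OE (orange) library, with the group mean ± SD as a bar and circles and triangles for odd and even replicates. DDB2/DDB1, XPC/RAD23B and POLH/POLK are higher in all 4 RRM2_OE libraries, and the other 3 ratios overlap.

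Other genes of the same pathways were taken as lists. Of 31 further excision repair genes, 30 could be tested, and 1 was higher (3.33%) and 4 lower (13.3%), with a median log2 fold change of -0.06. UVSSA, which acts where a polymerase has stalled in a transcribed gene, fell from 19.9 ± 0.433 to 13.1 ± 0.912 CPM (mean ± SD, n = 4; -0.60, adjusted p = 2.87e-04, edgeR). LIG3, the ligase that seals repaired gaps with XRCC1, fell by 0.30 and the cullin CUL4B by 0.26 on the log2 scale. RAD23B, the XPC partner, fell by 0.14, and the replicative ligase LIG1 rose by 0.22, but each of these 2 calls was kept on leaving out only 1 of the 8 single libraries (adjusted p up to 0.12003). With replicate number as a block 5 were higher and 9 lower, where 2303 and 2143 of all 15286 genes tested were. ERCC3 (0.06) and ERCC4 (-0.03) did not pass, and GTF2H4, with a mean of 0.47 CPM in MOCK, was too low to test.

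Of 24 further translesion genes, 5 were higher (20.8%) and 1 lower (4.17%), with a median of 0.03. DTL, the CUL4 adaptor that acts on PCNA-bound proteins, rose from 58.2 ± 2.81 to 79.1 ± 1.37 CPM (mean ± SD, n = 4; 0.44, adjusted p = 1.24e-04, edgeR). PCLAF, a PCNA-binding factor, rose by 0.45 and UBE2A, a partner of the ligase RAD18 in PCNA ubiquitination, by 0.23 on the log2 scale. PRIMPOL, a primase that restarts forks beyond lesions, rose by 0.32 and POLQ by 0.30, the POLQ call being lost on leaving out MOCK replicate 1 or 3 or RRM2_OE replicate 2 or 4 (adjusted p up to 0.0600). The Y-family polymerase POLI fell by 0.21, a call kept on leaving out only 1 of the 8 libraries (adjusted p up to 0.1099), and MAD2L2 gave 0.05. With replicate number as a block 10 were higher and 3 lower, where 2303 and 2143 of all 15286 genes tested were.

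Of 14 genes of the sliding clamp, its loader and the replicative polymerases that fill repair gaps, 6 were higher (42.9%) and 0 lower, with a median of 0.18. PCNA, the clamp, rose from 167 ± 14.7 to 251 ± 15.6 CPM (mean ± SD, n = 4; 0.59, adjusted p = 1.22e-04, edgeR). The loader subunit RFC3 rose by 0.37 and POLE, the catalytic subunit of polymerase epsilon, by 0.17 on the log2 scale. RFC5 (0.26), POLE4 (0.45) and POLD3 (0.21) also passed, and these 3 genes and POLE were each lost on leaving out at least 1 library (adjusted p up to 0.0874). Without RRM2_OE replicate 2 the count was 3 higher, where 891 of all 15419 genes tested were, against 1133 of 15286 with all libraries. With replicate number as a block 9 were higher and 1 lower, where 2303 and 2143 of all 15286 genes tested were. RFC5, POLE4, POLD3, PRIMPOL, POLQ and GTF2H4 were named after their values were seen.

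**Figure D4:**
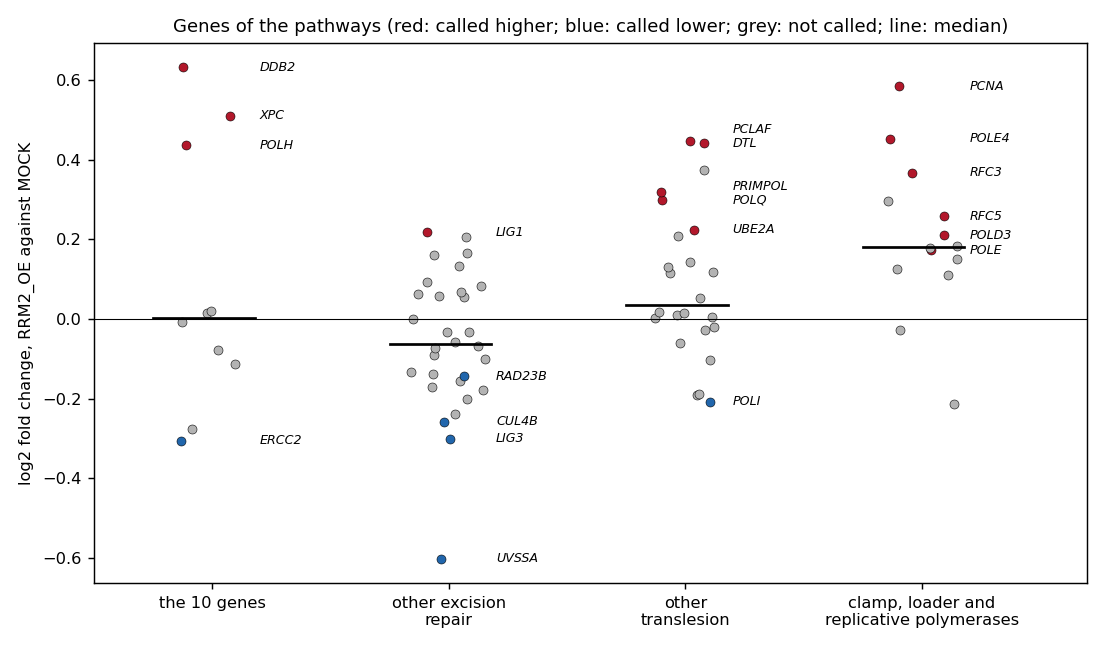
Log2 fold change of every tested gene of the 10-gene group and of the 3 lists (other excision repair, other translesion, and clamp, loader and replicative polymerases), with called genes coloured and named and the median as a line. The medians lie at 0.00, -0.06, 0.03 and 0.18.

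Odd and even replicate numbers stood apart in both groups, so each gene's difference between them was estimated beside the group effect. Of the 10 genes, 5 differed between odd and even libraries, where 30.4% of all tested genes did (edgeR, adjusted p below 0.05). ERCC5 was lower in the odd libraries by 0.29 on the log2 scale (SE 0.06, adjusted p = 6.22e-05), a larger difference than its group effect. XPC was lower there too (-0.19, adjusted p = 2.51e-04), while ERCC2 (0.22, adjusted p = 0.00181), ERCC1 (0.14, adjusted p = 0.0121) and DDB2 (0.09, adjusted p = 0.0415) were higher, all by edgeR. Each group holds 2 libraries of either kind. What the numbers stand for is not stated.

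The response itself was compared between odd and even libraries. No gene of 15286 passed the interaction test (0%; edgeR, adjusted p below 0.05), 491 had an unadjusted p below 0.05, and 0 of the 10 repair genes were among them. DDB2 differed between the groups by 0.62 on the log2 scale in the odd and 0.64 in the even libraries, XPC by 0.46 and 0.56, POLH by 0.33 and 0.53, ERCC2 by -0.30 and -0.32, and XPA by -0.22 and -0.32. These 5 had the same direction in both, and the difference for POLH, the widest of them, gave an unadjusted p of 0.0723 (edgeR interaction), and the smallest of the 10 was that of ERCC1, 0.0548. DDB1, ERCC1 and POLK, whose group effects did not pass, differed in sign between odd and even libraries.

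**Figure D5:**
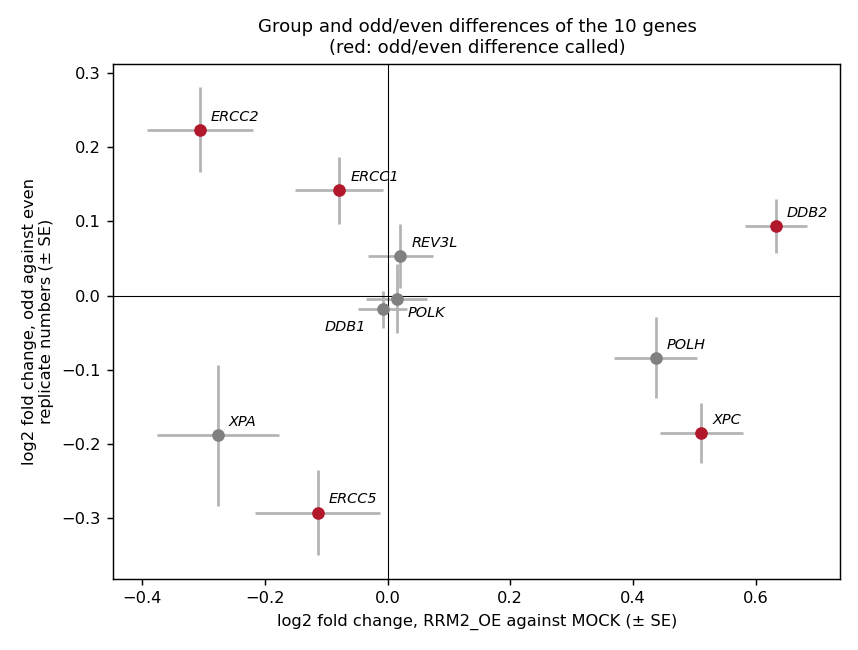
Log2 fold change between groups (x axis) and between odd and even replicate numbers (y axis) for the 10 genes, each ± SE from edgeR fits, with red points where the odd/even difference was called. DDB2 lies at 0.63 and 0.09, XPC at 0.51 and -0.19, and ERCC5 at -0.11 and -0.29.

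Among 11894 other genes with a mean of at least 5 CPM, those whose log2 CPM, centred on the MOCK mean, followed DDB2 most closely over the 8 libraries were NPTX1, IL1B and NFKBIZ, with root mean square differences of 0.0355, 0.0357 and 0.0632. Their group means went from 13.7 to 21.3 CPM for NPTX1, from 108 to 170.5 CPM for IL1B and from 28.1 to 43.6 CPM for NFKBIZ. This likeness is a description over libraries that fall into 2 groups, in which any gene with a similar fold and small spread comes close.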

How the data were processed

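Per the labels' protocols, libraries of 4 MOCK and 4 RRM2_OE samples were made from 200 ng of total RNA with a stranded poly(A) kit. HTSeq 0.11.2, TopHat2 and bcl2fastq 2.18.0.12 are listed, with hg19 (GRCh37), in the submitters' processing notes. Annotation and strand setting are not stated. The authors deposited whole-number read counts per gene, and RPKM values that were recomputed to within 4.7e-06 from the counts, column totals and exon lengths. Symbols came from a table of current names for 32562 of 34618 genes and from GENCODE 29 for 299, and 1757 IDs were left unnamed. All 115 list entries matched.

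Counts were tested across all genes with edgeR 4.0.16 in R 4.3.3 (filterByExpr, TMM, robust quasi-likelihood F test, group as the only term, Benjamini-Hochberg over 15286 genes, threshold 0.05). The SE was derived from the F statistic (log2 fold change divided by the root of F), and 95% intervals use its degrees of freedom. Ratios were tested in SciPy 1.17.1. Named genes were RRM2, the 10 members, ratio partners, PCNA, CDKN1A, MDM2, GADD45A, up to 3 called genes per list and direction with the smallest adjusted p, and the 3 genes most like the member with the smallest adjusted p; others were named after their values were seen. Members and lists were chosen with earlier results of these data known. Same-numbered libraries of the 2 groups had deviations from the group means that correlated at 0.22 to 0.25 over genes. The best correlation was with the same number for only 1 of 8 libraries. Odd and even numbers stand apart in both groups, so this correlation cannot show that the numbers pair the libraries. The labels do not state pairs, and the replicate block is given as an alternative only. The script was tested on simulated data. Alternatives were upper-quartile and RLE factors, no scaling factors beyond library size, DESeq2 1.42.0, limma-voom and limma 3.58.1 on log2 RPKM (pseudocounts 1 and 0.1), other low count filters, a replicate block, an odd/even term, a threshold of 0.01 and leaving out each library. Promoter sequences are RefSeq's, GRCh38.p14, and 10 of 10 genes matched; coordinates of genes are the deposited hg19 ones, and the builds were not joined.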

Additional observations from a re-analysis of the deposited data

Results flagged for a closer look

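In 20 groups of 4 libraries (10 genes in 2 groups), the highest or lowest CPM was set against the other 3, and chance alone marks about 1 in 20. POLK in MOCK replicate 1, at 48.9 CPM, lay apart from the other 3 MOCK libraries at 51.5 to 51.9 CPM. REV3L in MOCK replicate 3, at 71.8 CPM, lay apart from the others at 66.1 to 66.7 CPM. Neither gene was called with or without that library.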

How the results depend on the processing

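DDB2, XPC and POLH were called higher under all 20 alternatives, at 0.60 to 0.65, 0.47 to 0.55 and 0.39 to 0.47 on the log2 scale, and 3 of the 10 genes were called higher in each. The count called lower was 0 on log2(RPKM + 1) or log2(RPKM + 0.1) and at a threshold of 0.01, 2 with the replicate block or the odd/even term, and 0 to 1 on leaving out a library. The other excision repair genes gave 0 higher with library sizes only, both RPKM fits and the threshold of 0.01, 2 with no filter, 5 higher and 9 lower with the replicate block, 5 higher and 10 lower with the odd/even term, and 0 to 1 higher without 1 library. The other translesion genes gave 0 lower with library sizes only, DESeq2, both RPKM fits and no filter, 2 higher and 0 lower at 0.01, 10 higher and 3 lower with the block or the odd/even term, and 0 to 1 lower without 1 library. The clamp, loader and polymerase genes gave 9 higher and 1 lower with the block, 10 higher and 1 lower with the odd/even term, 2 higher at 0.01 and 3 to 5 higher without 1 library. The direction of DDB1 turned with library sizes only (0.0045), log2(RPKM + 1) (0.0047), log2(RPKM + 0.1) (0.0049) and without MOCK replicate 2 (0.0015), that of POLK without MOCK replicate 1 (-0.0054) and that of REV3L without RRM2_OE replicate 1 (-0.0159), none of them called. Leaving out 1 library gave -0.0244 to 0.0015 for DDB1, -0.0054 to 0.0237 for POLK and -0.0159 to 0.0489 for REV3L. Causes were not tested; a stricter threshold calls fewer genes by construction. Over all genes, 1133 higher and 829 lower became 2303 and 2143 with the block, and 2427 and 2277 with the odd/even term. These counts became 1017 and 463 on log2(RPKM + 1) and 530 and 281 at 0.01. With 1 library left out they were 808 to 937 higher and 542 to 607 lower, so fewer genes were called throughout. Paired differences of the ratios can reach no p below 0.125 with 4 pairs. Among the 10 genes the block changed the call of XPA only. XPA had the lowest counts of the 10, 102 to 147 a library.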
